A study of Rattus norvegicus with 32 samples.

Results

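Messenger RNAs for dense core vesicle proteins and for the enzymes that process prohormones were followed in the soma and dendrites of single rat neurons. The genes were chosen by name and comprised Cpe, Pcsk2, Pam, Scg5, Pcsk1n, Chga, Chgb, Scg2, Scg3 and Vgf, which are 10 of the 17216 gene rows. All 10 had a row in every library, and 9 passed the filter on low counts that left 4916 genes for testing. The cells were hippocampal neurons of wildtype rats (strain Sprague Dawley), prepared from E18 embryos and kept in culture for 15 days. The 2 groups were 16 soma samples and 16 dendrite samples, 1 of each from every neuron, and all were labelled pyramidal neurons. Neither group had received a treatment named in the labels. Each compartment was aspirated with its own micropipette, and polyadenylated RNA went through 3 rounds of antisense RNA amplification, in which RNA is copied linearly by in vitro transcription. More than 1 culture and collection day was used, but the labels do not tie them to neuron numbers, so p-values below measure the spread between these neurons, some of which may share a culture.

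Dense core vesicles are the organelles in which neurons and endocrine cells store neuropeptides, neurotrophins and granins. Their cargo is made as larger precursors, sorted in the Golgi, and cut at basic residues by prohormone convertases on the way to release. In hippocampal neurons these vesicles travel through axons and dendrites, and their release depends on activity. Granins are acidic, calcium-binding proteins that condense inside the vesicle and are themselves cut into peptides.

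Soma libraries held between 878125 and 24721811 gene counts, and dendrite libraries between 229149 and 24439768. Both extremes of low depth belonged to neuron 25. Values are given as CPM, the count of a gene scaled to a fixed total of gene counts per library. A count of 0 allowed up to 3 counts, which is 0.121 to 3.42 CPM in somata and 0.123 to 13.1 CPM in dendrites. This limit covers counting error only, since amplified reads are not independent molecules. The dendrites of neurons 13 and 20 were unusually alike, with a Spearman correlation of 0.784 over the tested genes. The next dendrite pair had 0.56 and the median pair 0.44. After centring, the dendrites of neuron 13 were most like their own soma (0.14). Those of neuron 20 were most like the soma of neuron 27 (0.0515, against 0.0414 for their own). Spike-in counts were 195030 beside 4305333 gene counts in the dendrites of neuron 20, and 40519 beside 19177322 in those of neuron 13. In these 2 samples, neuron 20 first, Chgb had 30 and 8332 counts, Scg3 8 and 2268, and Scg2 28 and 4307. Pam had 105 and 24527 counts, Pcsk2 14 and 2556, Chga 66 and 9299 and Vgf 85 and 3758. Cpe had 75159 and 67717, and Scg5 13697 and 16602. Which of the 2 is the odd one, and why they are alike, was not tested. The somata and dendrites of neurons 7, 8 and 9 matched better across than within these numbers in part. The soma of neuron 7 was most like the dendrites of neuron 9 (0.259 after centring, against 0.0907 for its own). That of neuron 9 was most like the dendrites of neuron 7 (0.165, against 0.0699 for its own). The best soma matches of these 2 dendrite samples were the same. Differences given between the soma and dendrites of neurons 7 and 9 therefore rest on the numbers in the titles. Over all neurons, 7 of 16 somata were most like their own dendrites. Values without these neurons are given where they change a result. Of the pyramidal markers, Neurod6 reached 10 counts in all 16 somata and all 16 dendrite samples, whereas the glutamate transporter gene Slc17a7 did so in 5 and 2. Gad1, which encodes a GABA-synthesizing enzyme, reached 10 counts in 7 somata and 11 dendrite samples.

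Summed over the 10 genes, the level ran from 0.399% to 2.22% of soma gene counts, with a median of 0.764%. In dendrite libraries it was between 0.447% and 2.07%, with a median of 0.891%. The mean difference, dendrites minus soma, was 475.2 ± 7460 CPM (SD, n = 16 neurons), and dendrites were higher in 6 of 16. The mean turned to -445.2 CPM without neuron 20, to -198.4 without neuron 9, to -123.5 without neuron 28 and to -32.24 without neuron 11. It stayed positive when any other 1 neuron was left out, with 808.8 CPM without neuron 13 and 1405 CPM without neuron 7. The sum mostly follows Cpe, whose counts were a median of 66.4% of it in somata and 64.4% in dendrites, without regard to transcript length. Between 5 (soma of neuron 28) and 9 of the 10 genes reached 10 counts in a library. Because these are shares of a library, a lower value can come from fewer transcripts of the gene or from more of all others, and the 2 cannot be told apart. Beyond this share, levels are not compared between genes, because no transcript lengths were used.

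**Figure D1:**
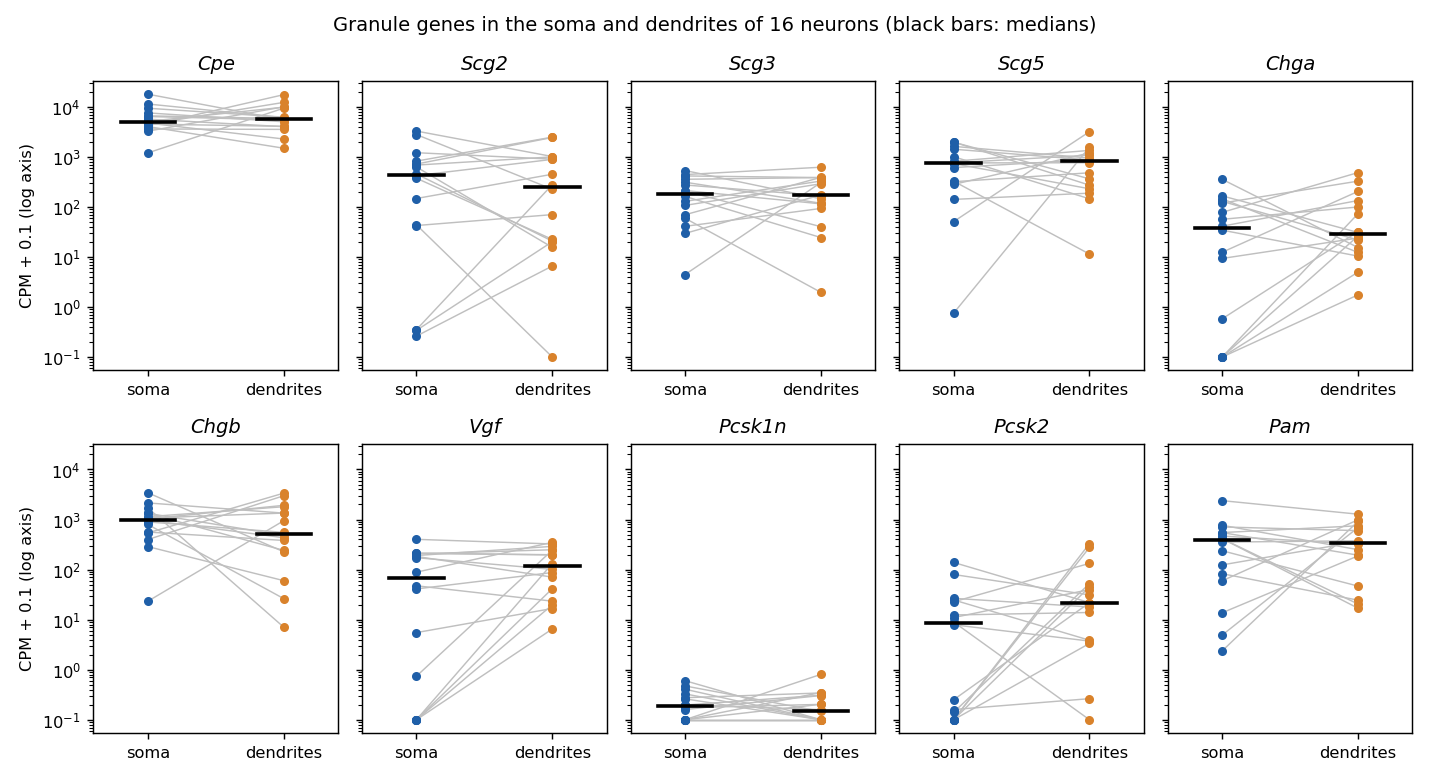
Level of each of the 10 genes in the soma (blue) and dendrites (orange) of 16 neurons, as CPM plus 0.1 on a log axis, with grey lines joining the 2 samples of a neuron and black bars at the medians. Cpe was at 1199 CPM or more in all 32 libraries, Pcsk1n at 0.707 CPM or less in all of them, and Scg2, Chga, Vgf and Pcsk2 ran from 0 counts to highest values of 3272, 485, 402 and 330 CPM.

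Cpe encodes carboxypeptidase E, which trims the basic residues that convertases leave at the ends of peptides. In somata Cpe was at 1199 CPM in the lowest library (neuron 28), 4922 at the median and 17849 in the highest (neuron 7). In dendrites it was at 1490 CPM in neuron 14, 5659 at the median and 17457 in neuron 20. The ranges overlapped almost wholly, and the highest library was 14.9 times the lowest in somata and 11.7 times in dendrites. Cpe was the steadiest of the tested granule genes: the standard deviation (SD) of log2 CPM was 0.96 between somata and 1.38 between dendrites, and 3.05% and 6.90% of the tested genes had a lower one. The soma and dendrite values of a neuron were within 2-fold of each other in 9 of 16 neurons and nowhere more than 10-fold apart.

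Pcsk2 encodes prohormone convertase 2, a protease that cuts many neuropeptide precursors. Its soma values ran from 0 counts (neurons 14, 20, 26 and 28) over a median of 8.36 CPM to 139 CPM in neuron 25. Its dendrite values ran from 0 counts in neuron 22 over a median of 21.8 CPM to 330 CPM in neuron 14. The compartments of a neuron could be opposite: neuron 14 had 0 of 22745901 soma counts and 4075 counts in its dendrites, while neuron 22 had 195 counts in its soma and 0 in its dendrites. Pcsk2 reached 10 counts in 9 somata and 13 dendrite samples. Its transcripts had 1 count or more in 27 of the 32 libraries, and the 0 in the soma of neuron 14 allowed at most 0.132 CPM.

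Pam encodes the enzyme that amidates peptide ends, a late step that many neuropeptides need for activity. It reached 10 counts in all 32 libraries, with 2.27 CPM (neuron 15), 384 and 2386 CPM (neuron 13) as the lowest, median and highest soma values. The dendrite values were 16.8 CPM (neuron 22), 341 and 1279 CPM (neuron 13). Neuron 13 was highest in both compartments, but neuron 15, lowest in soma, had 922 CPM in its dendrites, a 407-fold difference. Soma and dendrites were more than 10-fold apart in 6 of 16 neurons.

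Scg5 encodes 7B2, a chaperone that prohormone convertase 2 needs to mature. It reached 10 counts in every library. Its soma values were 0.65 CPM (neuron 18), 745 and 1974 CPM (neuron 8) at the lowest, median and highest, and its dendrite values 11.3 CPM (neuron 14), 814 and 3181 CPM (neuron 20). Neuron 18 held 13 counts in its soma against 26480 in its dendrites, 2410-fold apart and the widest gap among the granule genes with 4 or more counts in both samples, while 8 of 16 neurons were within 2-fold. Because Scg5 was found in every library, it was necessarily present also where its partner Pcsk2 was at 0. The somata of neurons 14, 20, 26 and 28 held 327, 50.6, 761 and 1619 CPM of Scg5.

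Pcsk1n encodes proSAAS, a granule protein that inhibits prohormone convertase 1. It had at most 5 counts in any library, was at 0 in 6 somata and 7 dendrite samples, and its highest level was 0.707 CPM, in the dendrites of neuron 21. It did not pass the filter and enters no test below. The annotation and the way reads were assigned to genes are not given, so these counts do not show that the transcript was absent. Pcsk1, the gene for the convertase that it inhibits, reached 10 counts in 3 somata and 1 dendrite sample, with a highest level of 5.76 CPM.

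Chgb encodes chromogranin B, one of the granins with which vesicle cores condense. It reached 10 counts in all somata, at 23.2 CPM (neuron 18), 1001 and 3428 CPM (neuron 21), and in 15 dendrite samples, at 6.97 CPM (neuron 20), 518 and 3367 CPM (neuron 11). After neuron 18 the lowest soma was that of neuron 27 at 288 CPM. Among dendrites, neurons 20, 25 and 27 were lowest, at 6.97, 26.2 and 60.0 CPM. In neuron 20 the dendrite level was 0.00408 of the soma level.

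Chga encodes chromogranin A. Its soma values ran from 0 counts in neurons 11, 18, 25 and 28 over a median of 37.6 CPM to 356 CPM in neuron 20. Its dendrite values ran from 1.65 CPM in neuron 11 over 28.5 to 485 CPM in neuron 13, and no dendrite sample was at 0. The somata of neurons 11 and 18 held 13367808 and 20002470 gene counts, so a 0 there allowed at most 0.224 and 0.15 CPM. The dendrites of neuron 18 held 73.2 CPM.

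Scg3 encodes secretogranin III, which links granin aggregates to the vesicle membrane. It was at 4.34 CPM (neuron 11), 185 and 533 CPM (neuron 26) in somata and at 1.86 CPM (neuron 20), 170 and 620 CPM (neuron 25) in dendrites. Low values were single libraries: after neuron 11 the lowest soma had 29.4 CPM, and after neuron 20 the lowest dendrite sample had 24.3 CPM.

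Scg2, which encodes secretogranin II, the precursor of secretoneurin, and Vgf, which encodes a granin-like precursor induced by neurotrophins, had the highest rank correlation between the 2 samples of a neuron, given below. Both genes are known targets of the cAMP-responsive factor CREB, so their start regions are shown, with the palindromic cAMP response element TGACGTCA in capitals. The sequences are from RefSeq (build GRCr8, a later build than the rn6 of the counts), on the minus strand, 5′ to 3′, from 250 bases before to 50 bases after the start. They lie at chr9:88256817-88257116 for Scg2 and chr12:25276971-25277270 for Vgf.
Scg2: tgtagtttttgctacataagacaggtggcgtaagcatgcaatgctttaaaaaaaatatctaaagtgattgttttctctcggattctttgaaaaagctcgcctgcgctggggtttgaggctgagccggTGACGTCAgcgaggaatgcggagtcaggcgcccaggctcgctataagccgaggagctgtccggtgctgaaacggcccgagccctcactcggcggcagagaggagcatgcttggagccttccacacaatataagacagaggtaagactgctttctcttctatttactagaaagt
Vgf: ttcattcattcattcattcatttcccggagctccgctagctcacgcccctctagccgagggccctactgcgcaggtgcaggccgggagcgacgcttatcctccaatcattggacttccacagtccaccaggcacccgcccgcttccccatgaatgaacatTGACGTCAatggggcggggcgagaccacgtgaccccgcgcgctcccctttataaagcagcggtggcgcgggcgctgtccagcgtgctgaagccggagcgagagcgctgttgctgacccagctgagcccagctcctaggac
The first base of the element is at position -123 in Scg2 and -90 in Vgf, counted from the start. Promoter windows were found for 9 of the 10 genes (Chga had no entry), and these 2 were the ones that held the element on either strand. Of all 33469 windows of the table, 612 (1.83%) held it. The letters TATAAA, on either strand, were in the window of Vgf among these 9 and in 14.2% of all windows. A match describes the sequence and was not tested as a binding site.

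Scg2 in somata was at 0.162 CPM (neuron 20), 438 and 3272 CPM (neuron 8) at the lowest, median and highest, and in dendrites at 0 counts (neuron 14), 251 and 2475 CPM (neuron 15). The somata of neurons 20, 27 and 28 held 1, 4 and 2 counts, and their dendrites 6.5, 20.1 and 278 CPM. The dendrites of neuron 14 held 0 of 12332484 counts, where its soma held 43.8 CPM. The other 13 somata held 42.3 CPM or more. Scg2 varied widely between neurons, with an SD of log2 CPM of 4.36 between somata, higher than in 90.2% of the tested genes.

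Vgf was detected in all 16 dendrite samples, at 6.42 CPM (neuron 27), 116 and 350 CPM (neuron 8). In somata it ran from 0 counts in neurons 20, 26, 27 and 28 over a median of 68.0 CPM to 402 CPM in neuron 11. The somata of neurons 22 and 23 were also low, at 0.64 and 5.41 CPM. The dendrites of these 6 neurons held 19.7, 41.5, 6.42, 132, 245 and 16.6 CPM, in the order 20, 26, 27, 28, 22 and 23. The low somata had between 4166973 and 21863479 gene counts, and when libraries were thinned to 1071293 counts each, Vgf reached 10 counts in 9 of 15 somata and 14 of 15 dendrite samples.

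Dendrites were then compared with the soma of the same neuron, which asks whether a transcript made up a different share of the mRNA in the 2 compartments. With edgeR's quasi-likelihood test and the neuron as a block, 0 of the 9 tested granule genes passed an adjusted p of 0.05, as did 0 of 4916 genes in all (0.0%). At an unadjusted p under 0.05 the counts were 0 of 9 and 129 of 4916 (2.62%). Log2 fold changes were positive, meaning higher in dendrites, for 5 of 9 genes, against 54.8% of all tested genes. Their median was 0.044, beside 0.127 over all tested genes.

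Pcsk2 had the highest fold change, 2.07 ± 1.95 (SE, n = 16 neurons), and its normalized level was the higher one in the dendrites of 11 of 16 neurons (adjusted p = 0.999 from edgeR). Chga followed at 1.90 ± 1.44, higher in 11 of 16, and Vgf at 1.72 ± 1.28, higher in 12 of 16 (edgeR adjusted p = 0.999 for both). These 3 genes each had 4 somata at 0 counts. Chgb was at -0.85 ± 0.71 and higher in dendrites in 6 of 16 neurons. Values near 0 were found for Cpe (0.04 ± 0.37), Pam (0.04 ± 0.89), Scg3 (-0.07 ± 0.81), Scg2 (-0.15 ± 1.15) and Scg5 (-0.31 ± 0.79). For Pcsk2 a difference of several fold in either direction was within 2 SE. With no replicate block, thus without comparing within neurons, the values were 0.92 ± 0.48 for Cpe, 0.36 for Chga, 0.48 for Vgf, -0.30 for Chgb and 1.19 for Scg5, and again 0 genes passed.

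DESeq2's Wald test with the same block called 406 of 4916 genes (8.26%) and 0 of the 9, with its lowest adjusted p values at 0.104 for Chga, 0.176 for Vgf and 0.204 for Pcsk2. Limma-voom and an exact sign-flip permutation test per gene called 0 genes (0.0%). With no filter on low counts edgeR called 1 of 13879 genes (0.00721%), which was not a granule gene. In the sign-flip test Vgf had a mean paired difference of 2.64 log2 CPM (exact permutation p = 0.0203, two-sided, adjusted p = 0.865 over all genes). The fold changes of Pcsk2, Chga and Vgf stayed positive, and that of Chgb negative, in all 16 edgeR fits that each left out 1 neuron. The sign of Chgb turned with limma-voom, at 0.22. Cpe, Pam, Scg2 and Scg3 changed sign in some of these fits, among them that without neuron 13 for Scg2 (0.15) and Scg3 (0.01).

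**Figure D2:**
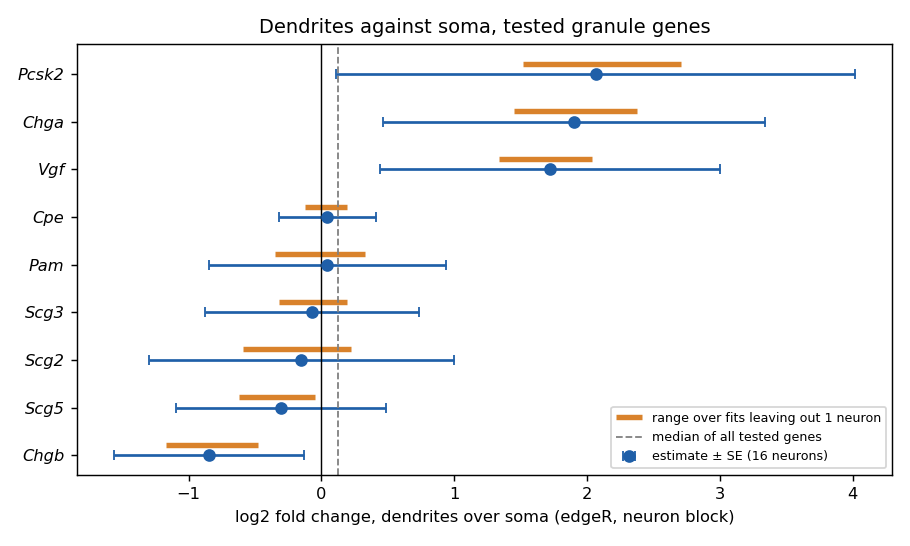
Log2 fold change, dendrites over soma, of the 9 tested genes (blue points, bars ± SE, 16 neurons), with the range over 16 fits that each left out 1 neuron (orange) and the median of all 4916 tested genes (dashed). Pcsk2, Chga and Vgf lie to the right of 0 with wide errors, Chgb lies to the left, and the other 5 genes lie between -0.31 and 0.04.

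The title of the series is about drift below the level of the cell, so the spread of each gene between neurons was compared between compartments. Of the 9 genes, 2 (Cpe and Chgb) had the larger SD of log2 CPM in dendrites, as did 1893 of 4916 tested genes. Vgf differed most: its SD was 4.47 between somata and 1.64 between dendrites, a log2 ratio of -1.45. An exact permutation test, with compartment labels swapped within neurons, gave p = 0.000397 (two-sided, adjusted p = 0.173 over all tested genes). Chga had 4.19 and 2.30, a log2 ratio of -0.87 (exact permutation p = 0.0061, adjusted p = 0.464).

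Neither gene passed after adjustment, and 0 of 4916 genes did (0.0%). At an unadjusted p under 0.05, 321 genes (6.53%) differed, of which 243 (4.94%) varied less in dendrites, Vgf and Chga among them. The ratio of Vgf stayed between -1.57 and -1.33 when any 1 neuron was left out, with an adjusted p between 0.15 and 0.42. In somata the level of Vgf also went with depth (Spearman rho 0.49 with total counts, n = 16), and the part of depth in this result was not tested. The soma values also split by the neuron's label number: numbers 7 to 18 held 88.7 to 402 CPM, and numbers 20 to 28 held 0 to 47.4 CPM. The labels do not say whether numbers follow culture or day, so what this split adds to the SD of 4.47 was not tested. The other genes had log2 ratios between -0.48 (Pam) and 0.52 (Cpe). That of Cpe was 0.07 when levels were scaled to library totals alone. It turned to -0.28 without neuron 20, whose dendrites had the highest level of Cpe. That of Chgb was 0.39 and rose to 1.12 without neuron 18, whose soma had its lowest level.

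**Figure D3:**
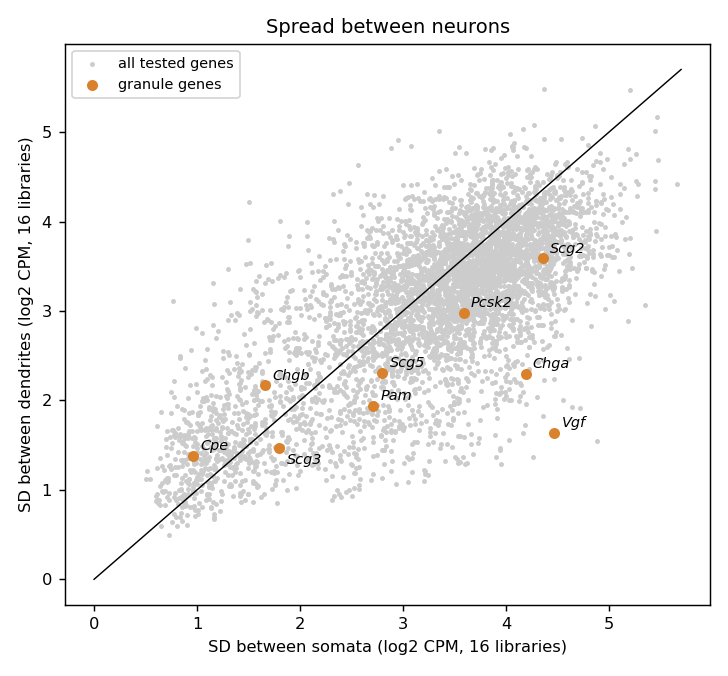
SD of log2 CPM between 16 somata (x axis) and between 16 dendrite samples (y axis) for all tested genes (grey) and the 9 granule genes (orange), with the line of equal spread. Vgf (4.47 and 1.64) and Chga (4.19 and 2.30) lie far below the line, and Cpe (0.96 and 1.38) and Scg3 (1.80 and 1.47) lie among the least variable genes.

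The levels in a neuron's soma and in its own dendrites were next set side by side over the 16 neurons. Correlations between cells are given as a description, since some of these samples may share a culture or day, and they differ in depth. Spearman's rho was 0.594 for Scg2 and 0.581 for Vgf (Pearson's r of log2 CPM 0.364 and 0.46). Over all tested genes the median was 0.0816, and 5.86% had a rho over 0.5. For Scg2, 2.28% of the tested genes had a rho as high, and for Vgf 2.62%. Without the 2 somata farthest from the median, r was 0.495 for Scg2 (neurons 20 and 28 left out) and 0.494 for Vgf (neurons 20 and 26 left out). Without neurons 7, 8 and 9 rho was 0.571 and 0.646, without neuron 20 it was 0.604 and 0.616, without neuron 13 it was 0.65 and 0.544, and without neuron 25 it was 0.539 and 0.58.

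For Scg2, neurons 20 and 27 were low in both samples, and neurons 8, 15, 23, 25 and 26 held 684 CPM or more in both. Neurons 9, 11 and 18 had 374 to 628 CPM in soma but 15.4 to 22.3 CPM in dendrites, and neuron 28 had 2 counts in soma and 278 CPM in dendrites. For Vgf, the 8 somata of neurons 7, 8, 9, 11, 13, 14, 15 and 18 held 88.7 to 402 CPM and their dendrites 70.6 to 350 CPM. These are also the 8 lowest label numbers, and in numbers 20 to 28 dendrites held 6.42 to 245 CPM, so the rho of Vgf runs partly along the numbering, and the part of a shared culture or day in it was not tested. The exceptions were neurons 22 and 28, with 0.64 CPM and 0 counts in soma and 245 and 132 CPM in dendrites. The other genes had lower values: Chga 0.324 (r 0.508, and 0.609 without neurons 18 and 25), Scg3 0.0971, Cpe 0.0412, Pam 0.0118, Chgb -0.2, Scg5 -0.259 and Pcsk2 -0.339. Cpe was therefore detected in every sample, with little relation between its soma and dendrite levels.

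**Figure D4:**
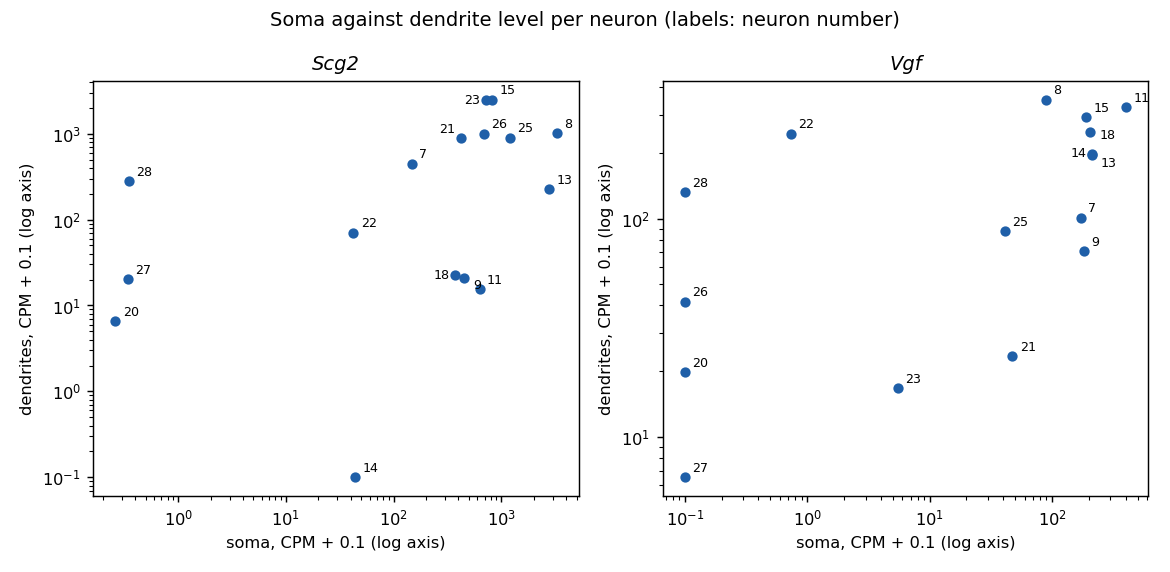
Soma level (x axis) against dendrite level (y axis) of Scg2 and Vgf in each of 16 neurons, as CPM plus 0.1 on log axes, labelled by neuron number. For both genes most points rise together (rho 0.594 and 0.581), with neuron 14 low in dendrites for Scg2 and neurons 22 and 28 low in soma for Vgf.

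The granule genes did not rise and fall together as 1 group. Among the 36 pairs of the 9 genes, the median rho between neurons was 0.0887 in somata, with 20 positive pairs, and -0.0191 in dendrites, with 16 positive pairs. The median over all pairs of tested genes was 0.0439 in somata (56.0% positive) and 0.0559 in dendrites (57.7% positive). Exactly 1 pair exceeded 0.5 in each compartment, beside 4.55% of all gene pairs in somata and 5.03% in dendrites. By Pearson's r, 5 soma pairs and 2 dendrite pairs exceeded 0.5, among them Scg5 and Chgb in somata (r 0.689, rho 0.15), which were both lowest in neuron 18. By rho, the soma pair was Chga and Chgb, at 0.566 (r 0.553), which had -0.168 in dendrites (r -0.182). The dendrite pair was Chgb and Vgf, at 0.547 (r 0.505), which had -0.187 in somata (r -0.179).

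Pcsk2 and its chaperone gene Scg5 had a rho of -0.16 in somata and 0.01 in dendrites. Scg2 and Vgf, which share the element shown above, had 0.353 in somata (r 0.701) and -0.162 in dendrites (r -0.231). The somata of neurons 20, 27 and 28 were near or at 0 for both, with 1, 4 and 2 counts of Scg2 and 0 of Vgf. The part of the element in these values was not tested. Cpe and Scg5 had 0.474 in dendrites (r 0.774), where both were highest in neuron 20, and 0.0882 in somata. Scg2 and Pam were positive in both compartments, at 0.415 and 0.253.

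**Figure D5:**
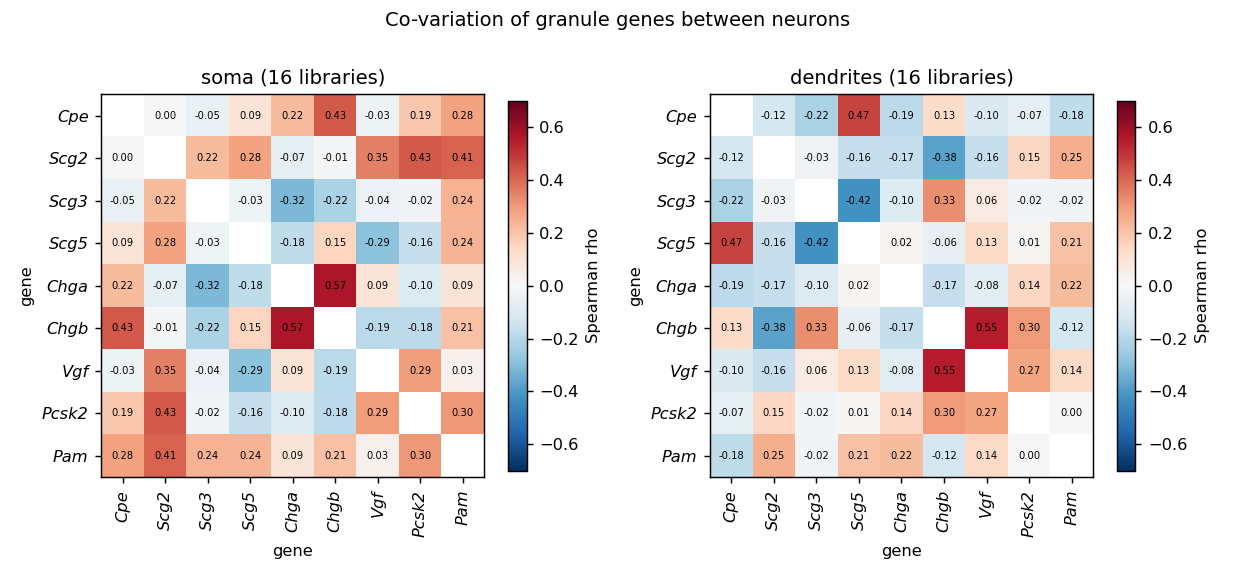
Spearman rho between granule genes over 16 somata (left) and over 16 dendrite samples (right), from log2 CPM, with the value printed in each cell. The strongest pairs differ between the panels: Chga and Chgb (0.57) in somata, and Chgb and Vgf (0.55) in dendrites.

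The genes whose pattern was most like each granule gene were sought over the 32 libraries, with log2 CPM centred within compartments. The nearest genes were Serinc1 for Cpe (rho 0.669), Rnd2 for Scg2 (0.713), Hadha for Scg3 (0.673), Scamp1 for Scg5 (0.679), RGD1311739 for Chga (0.634), Zfp512b for Chgb (0.642), Tyro3 for Vgf (0.757), Zfp385b for Pcsk2 (0.734) and Pabpn1 for Pam (0.692). The second nearest were Usp46 (0.656), Kcnd3 (0.683), Dnajc8 (0.628), Trmt1 (0.671), Tmem164 (0.618), Atp1b1 (0.631), Rab4b (0.713), RGD1305455 (0.733) and Ppp6r1 (0.635), in the same order. Within the set, the closest partners were Scg2 and Pam (0.349), yet Pam was at rank 266 among the tested genes in likeness to Scg2. For the mean of the 9 standardised genes the nearest were Luc7l3 (0.71), Tmem19 (0.702), Sra1 (0.688), Snhg11 (0.68) and Nxf1 (0.679). These are the highest of 4916 values each and are given as a description.

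Other genes of the pathway were read from 3 lists. Of 25 precursors of neuropeptides and other cargo, 3 passed the filter, of which 2 had a positive fold change and 0 passed the test. Bdnf, the neurotrophin gene, was at a median of 325 CPM in somata and 105 CPM in dendrites, with a log2 fold change of -0.86 ± 0.88 (SE, n = 16). Cck, which encodes the cholecystokinin precursor, was at 29.5 and 59.0 CPM, with 2.44 ± 1.48, and Sst, the somatostatin gene, reached 10 counts in 6 libraries of each compartment. Of 15 other processing enzymes analysed here, 11 were tested, 8 were positive, and 0 passed. Named by the highest mean CPM, as in the other lists, which is no comparison of transcript levels, these were the cathepsin genes Ctsb (medians 146 and 216 CPM, fold change 0.72 ± 0.74) and Ctsl (79.4 and 61.2 CPM, 0.69 ± 1.41), and Qpctl, of the glutaminyl cyclase family (29.8 and 4.59 CPM, -1.53 ± 2.52).

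Of 24 genes of vesicle formation, transport and release analysed here, 17 were tested, 10 were positive and 0 passed. Snap25, a membrane fusion protein, was at medians of 1320 and 1120 CPM (-0.36 ± 0.39), the synaptotagmin gene Syt4 at 844 and 734 CPM (-0.33 ± 0.53) and the small GTPase gene Rab10 at 484 and 631 CPM (0.16 ± 0.87). The edgeR adjusted p was 0.999 for each gene named from these lists that was tested, and the list medians were 2.44, 0.72 and 0.25, beside 0.127 over all tested genes. In all 32 libraries, 4 of the 24 genes of vesicle formation and release reached 10 counts, Snap25 and Syt4 among them, and 0 of the 25 cargo precursors did, beside 3.19% of all 17216 gene rows.

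Markers of other cells were read beside these levels. The 13 astrocyte markers summed to between 65.5 and 797 CPM in somata and between 69.3 and 2970 CPM in dendrites, and 12 of 13 reached 10 counts in 1 or more libraries of each compartment. Among them Gfap reached 10 counts in 2 somata and 5 dendrite samples and Apoe in 7 and 10, and Slc1a2 was at 0 in every soma. The summed inhibitory markers (10 genes) ran from 0 to 17500 CPM in somata, highest in neuron 8, and from 0 to 2870 CPM in dendrites, also highest in neuron 8. Neuron 8 also had the highest Scg2 in soma. In dendrites Scg2 went with the inhibitory sum (rho 0.623, n = 16, and 0.619 without neurons 7, 8 and 9), and in somata the rho was 0.353. In somata without these 3 neurons Scg3 had 0.593, against 0.324 with them.

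Vgf in somata went against the summed pyramidal markers (9 genes, 96.5 to 6670 CPM, rho -0.596), and Scg5 in dendrites against the astrocyte sum (rho -0.553). In dendrites Pam had a rho of -0.524 with the pyramidal sum and of 0.659 with depth. Pcsk2 in dendrites had -0.671 with the 12 endothelial, mural and fibroblast markers (0.26 to 738 CPM) and Chga -0.506 with the 10 oligodendrocyte markers (0.363 to 147 CPM). Of 10 microglial markers, 0 reached 10 counts in a soma, and 1 did in a dendrite sample. Of 6 chromaffin and endocrine markers, 2 reached 10 counts in a soma and 0 in a dendrite sample, with a summed level of at most 10.1 CPM (soma of neuron 9), and Pnmt, Ins1, Ins2 and Gcg were at 0 in all 32 libraries. Over all neurons these were 6 marker values past 0.5 in size among 126 compared, and they are named here for their size. No share over all tested genes was set beside them, so they are a description and mark no granule gene as unusual. The part of other cells in the levels of granule genes was not tested.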

How the data were processed

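The authors deposited 1 table of raw counts per library, with 17216 gene symbols and 92 spike-in transcripts. Build rn6 is named per the submitters' processing notes. Aligner, annotation and the handling of strand and of reads shared by genes are not given in the sources used here, so genes that overlap or have near-identical copies are uncertain. No molecular identifiers are named.

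Spike-ins stayed out of library sizes. Genes passed filterByExpr (minimum count 10) by compartment, and the 4916 left held 91.8% to 97.2% of the gene counts of a library. The main test was edgeR 4.0.16 in R 4.3.3 (TMM, glmQLFit robust, glmQLFTest, Benjamini-Hochberg over all tested genes, threshold 0.05). SEs were taken from each fold change and its F statistic (fold change divided by root F). Log2 CPM for spreads and correlations used TMM and a prior count of 2. Soma and dendrites were collected as a pair from each cell per the series text, and titles carry the cell's number, which entered the fit as a block. Centred profiles of the 2 samples of a neuron had a mean Spearman rho of 0.0678, against -0.000544 between neurons. Spread was centred within compartments and tested over all 65536 swaps, where the smallest two-sided p is 3.05e-05. DESeq2 1.42.0 and limma 3.58.1 gave alternatives. The code was tested on simulated data. The granule genes, lists, rules and alternatives were chosen with earlier results of these data known. Named list genes are the 3 with the highest mean CPM per list, and genes named as alike are the 2 with the highest rho.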

Additional observations from a re-analysis of the deposited data

How the results depend on the processing

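No granule gene passed an adjusted p of 0.05 in any of the fits tried, and the count over all genes was 0 except for 406 with DESeq2 and 1 with no filter on low counts (of 13879 genes, with 424 at an unadjusted p under 0.05). The count was also 0 with no replicate block, which changed no call, and there 336 genes had an unadjusted p under 0.05. Over fits that left out 1 neuron the number of positive fold changes ran from 3 to 7 of 9. It was 3 of 7 with the stricter filter and 8 of 9 in the sign-flip test of mean log2 differences. Signs turned for Scg5 with no replicate block (1.19), for Pam with library totals (-0.06), for Cpe (-0.12), Pam (-0.18) and Scg5 (0.05) with spike-in totals, and for Chgb (0.22), Cpe (-0.05), Pam (-0.05), Scg3 (0.06) and Scg5 (0.01) with limma-voom. They turned in the sign-flip test for Scg2 (0.02), Scg3 (0.09) and Scg5 (0.41), without neuron 20 for Cpe (-0.10) and Scg3 (0.19), without neuron 25 for Pam (-0.03) and without neurons 7, 8 and 9 for Scg2 (0.28). Over fits that left out 1 neuron the ranges were -0.12 to 0.19 for Cpe, -0.35 to 0.33 for Pam, -0.59 to 0.22 for Scg2 and -0.32 to 0.19 for Scg3. The log2 ratio of SDs turned for Scg3 with library totals (0.18) and for Cpe without neuron 20 (-0.28), and ranged from -0.66 to 0.20 for Scg3, -0.28 to 0.78 for Cpe and -0.65 to 0.59 for Scg5 when 1 neuron was left out. The causes were not tested. The median rho between granule genes ranged from 0.00535 to 0.148 in somata and from -0.075 to 0.0625 in dendrites when 1 neuron was left out. Without neurons 7, 8 and 9 it was -0.00139 in somata and -0.0192 in dendrites. The summed level already rests on library totals, so that alternative gives the value reported. Pcsk1n reached 1 count in 19 libraries and 5 counts in 4. Low depth limits what a 0 shows most in neuron 25.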

Other observations

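Several neuropeptide precursors were found in few libraries at high level and at or near 0 elsewhere, and these examples were chosen after their values were seen. Penk, the proenkephalin gene, reached 10 counts in 1 soma and 4 dendrite samples, with a median of 0 in both compartments and 1020 CPM in the dendrites of neuron 15. Pdyn, the prodynorphin gene, reached 10 counts in 5 somata and 0 dendrite samples, with a highest level of 184 CPM in the soma of neuron 14 and 0.125 CPM in dendrites. Crh, the corticotropin-releasing hormone gene, was at 0 in every soma and reached 10 counts in the dendrites of neuron 28 alone, at 246 CPM. Nts, the neurotensin gene, was highest in neuron 7 in both compartments, at 490 and 218 CPM. Sst was highest in the soma of neuron 9 (858 CPM) and in the dendrites of neuron 7 (689 CPM), and the best match of neuron 9's soma over all tested genes was also the dendrites of neuron 7 (centred rho 0.165).

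Resp18, a granule gene of endocrine cells, reached 10 counts in 4 somata and 6 dendrite samples, and its highest level lay in neuron 14 in both, at 177 and 500 CPM. The dendrites of neuron 14 also had the highest Pcsk2 (330 CPM), no Scg2 count and the lowest Scg5 (11.3 CPM). The dendrites of neuron 20 combined the highest Cpe (17457 CPM) and Scg5 (3181 CPM) of any dendrite sample with the lowest Chgb (6.97 CPM) and Scg3 (1.86 CPM). This is the sample unusually like the dendrites of neuron 13 (Spearman correlation 0.784). Its Chgb and Scg3 values are 30 and 8 counts, so whether they are levels of this cell was not tested.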
